A study of Mus musculus with 5 samples.

Results

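The genes described here encode the enzymes and binding proteins with which a cell keeps its thiols reduced and removes peroxides, reactive aldehydes and foreign chemicals. They were taken from the deposited expression table by gene symbol alone: glutathione S-transferases, microsomal glutathione S-transferases, peroxiredoxins, thioredoxins, glutaredoxins, glutathione reductase and synthetase, superoxide dismutases, catalase, aldehyde dehydrogenases, aldo-keto reductases, epoxide hydrolases, carbonyl reductases, cytochromes P450 of families 1 to 4 with their reductase Por, and the metallothioneins Mt1 and Mt2. This gave 85 of the 12621 genes in the table. The study compared cultured mouse mesenchymal stem cells (MSCs) from wild-type (WT) animals with MSCs lacking TNFα-stimulated gene 6 (TSG-6, gene Tnfaip6), a secreted hyaluronan-binding protein, and its title ties TSG-6 to stemness. All samples carried the strain label Balb/c (C.129S6), no treatment was labelled, and neither the tissue the cells came from nor their passage was given in the sources used here. The design text names 2 biological replicates per cell type, while the table holds 2 WT libraries, headed C1 and SE, and 3 knockout (KO) libraries, headed C1, C2 and SE. The sources used here do not explain C and SE. They also do not tie a library to an animal or a culture, and the p-values below therefore describe only how these 5 libraries spread.

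Glutathione and thioredoxin are the main thiol reductants of the cell. Glutathione S-transferases couple glutathione to electrophiles such as lipid aldehydes and epoxides, peroxiredoxins reduce hydrogen peroxide with electrons from thioredoxin, and glutathione reductase restores oxidised glutathione with NADPH. Aldehyde dehydrogenases oxidise aldehydes, aldo-keto and carbonyl reductases reduce them, and P450s and epoxide hydrolases act one after the other on lipids and foreign compounds. Many of these genes are known targets of the transcription factor NRF2, of the aryl hydrocarbon receptor (AHR) or, for the metallothioneins, of the zinc-sensing factor MTF1.

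Values are the authors' normalised read counts, scaled to library size, and they rest on 13605555 to 26658725 reads per library. The members took 1.06% to 1.56% of the summed values of a library. Tnfaip6 itself was at 6.04 in WT C1 and 3.21 in WT SE, against 1.65 in KO C1, 2.38 in KO C2 and 1.36 in KO SE. The 2 groups did not overlap, but the difference did not pass the test used throughout (log2 change -1.13, SE 0.37, adjusted p = 0.0578), and the deleted part of the gene is not given in the sources used here. Of the MSC markers, Itgb1 was at 1035 to 1431 in every library, whereas Nt5e was at 77.4 and 121 in WT and between 0.358 and 0.946 in KO, and Alcam was at 35.6 and 38.6 in WT and at 0, 0.378 and 0 in KO. Pdgfrb went the other way, at 49.0 and 145 in WT and 239.8, 239.5 and 860.05 in KO, and was not called. Adipocyte markers stood higher in every KO library, and are given with the results they move with below. In libraries from whole cultures, fewer cells of a type and less RNA per cell cannot be told apart.

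Among the detoxification genes, calls of higher expression in KO cells outnumbered calls of lower expression. Here a gene is called when its Benjamini-Hochberg adjusted p over the 12484 genes tested (limma on log2 of the value plus 0.5) is under 0.05. All 85 members passed the filter on low values. KO cells had 32 members called higher, 37.6% of them, where 17.2% of all tested genes were called higher, and 10 called lower, 11.8% of them, where 17.1% of all tested genes were. Together 42 members were called, 49.4% of them, against 34.3% of all tested genes, and 43 were not. The median log2 change of the members was 0.43, that of all tested genes -0.09. Among the members called higher, 13 had a KO mean at least 10 times the WT mean, and 10 of these had a KO mean of 5 or more. The 13 include Gstk1, Gstm6, Aldh1b1 and Cyp4a12b, which were under 1 in both WT libraries. Aldh3a1, Akr1c18 and Mt2 were the 3 that fell at least 10-fold. The share of all tested genes that moved 10-fold was not computed, so these counts stand without a comparison. In 6 members every WT library was under 1, so these could enter the test only through their KO values; 5 of them were called higher, and of the other 79 members 27 were called higher and 10 lower. The KO values lay wholly above the WT values in 39 of the 85 members, where 28.0% of all tested genes did so. They lay wholly below in 15 of the 85, where 30.7% of all tested genes did so. In the plot of all members by family, the transferases, carbonyl reductases and P450s reach far to the right, and the peroxiredoxins and thioredoxins stay close to or left of 0.

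**Figure D1:**
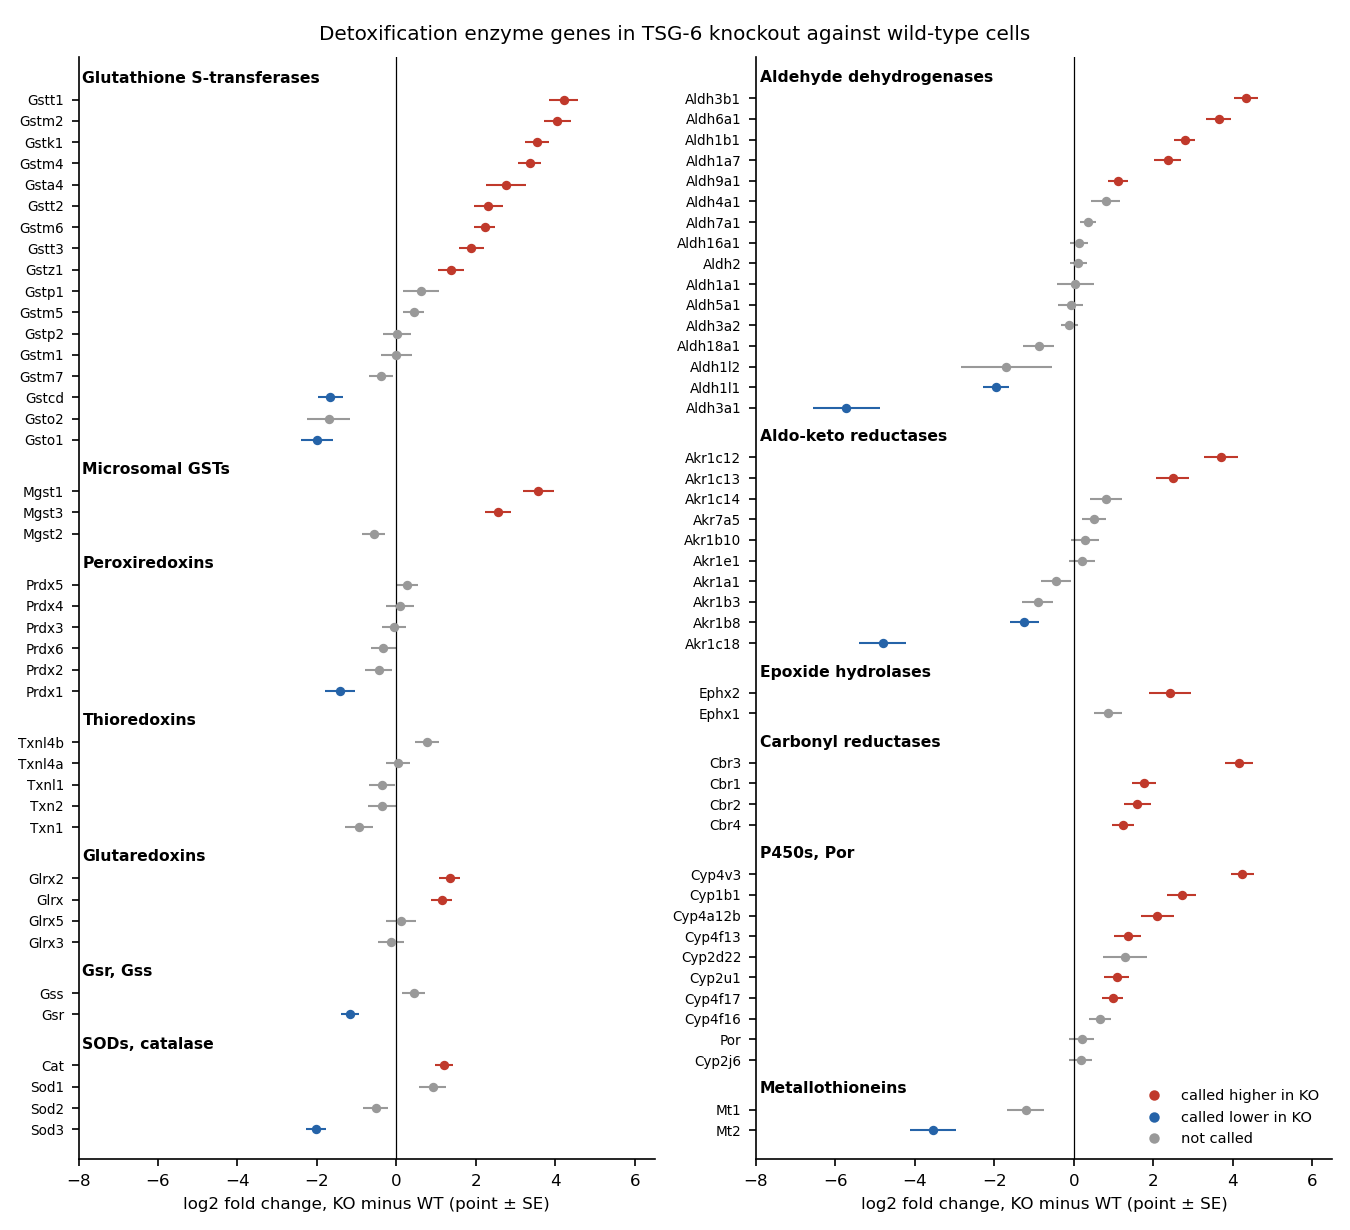
Log2 change, KO minus WT, of each of the 85 members (x axis; point and SE from the limma fit, 2 WT and 3 KO libraries), grouped by family; red members were called higher, blue lower and grey not called. The 32 red points lie mostly among glutathione S-transferases, aldehyde dehydrogenases, carbonyl reductases and P450s, and Aldh3a1 (-5.73) and Akr1c18 (-4.81) reach farthest to the left.

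The members' summed value averaged 13452 in WT and 13140 in KO, so rises and falls nearly balanced in these means. SE libraries weigh more in the WT mean than in the KO mean. The members took 1.56% of the summed values in WT C1 and 1.13% in WT SE. In KO C1, C2 and SE they took 1.34%, 1.51% and 1.06%. Levels between genes are compared here per kilobase of exon. In WT cells the highest members were Prdx1 at 868 per kilobase, Mt1 at 574, Gsto1 at 553, Txn1 at 384, Akr1a1 at 378 and Aldh3a1 at 267. In KO cells the order began with Mgst3 at 639, Mgst1 at 630.0, Ephx1 at 423, Prdx1 at 319, Akr1a1 at 279 and Mt1 at 257. The microsomal transferases Mgst3 and Mgst1 and the microsomal epoxide hydrolase Ephx1 thus stood above Prdx1, the leader in WT. Ephx1 was already at rank 7 in WT, and its difference was not called (adjusted p = 0.110). Aldh3a1 went from rank 6 to rank 63 among the 85, Mt2 from 16 to 59 and Gsto1 from 3 to 12, while Mgst3 went from 15 to 1 and Mgst1 from 22 to 2.

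**Figure D2:**
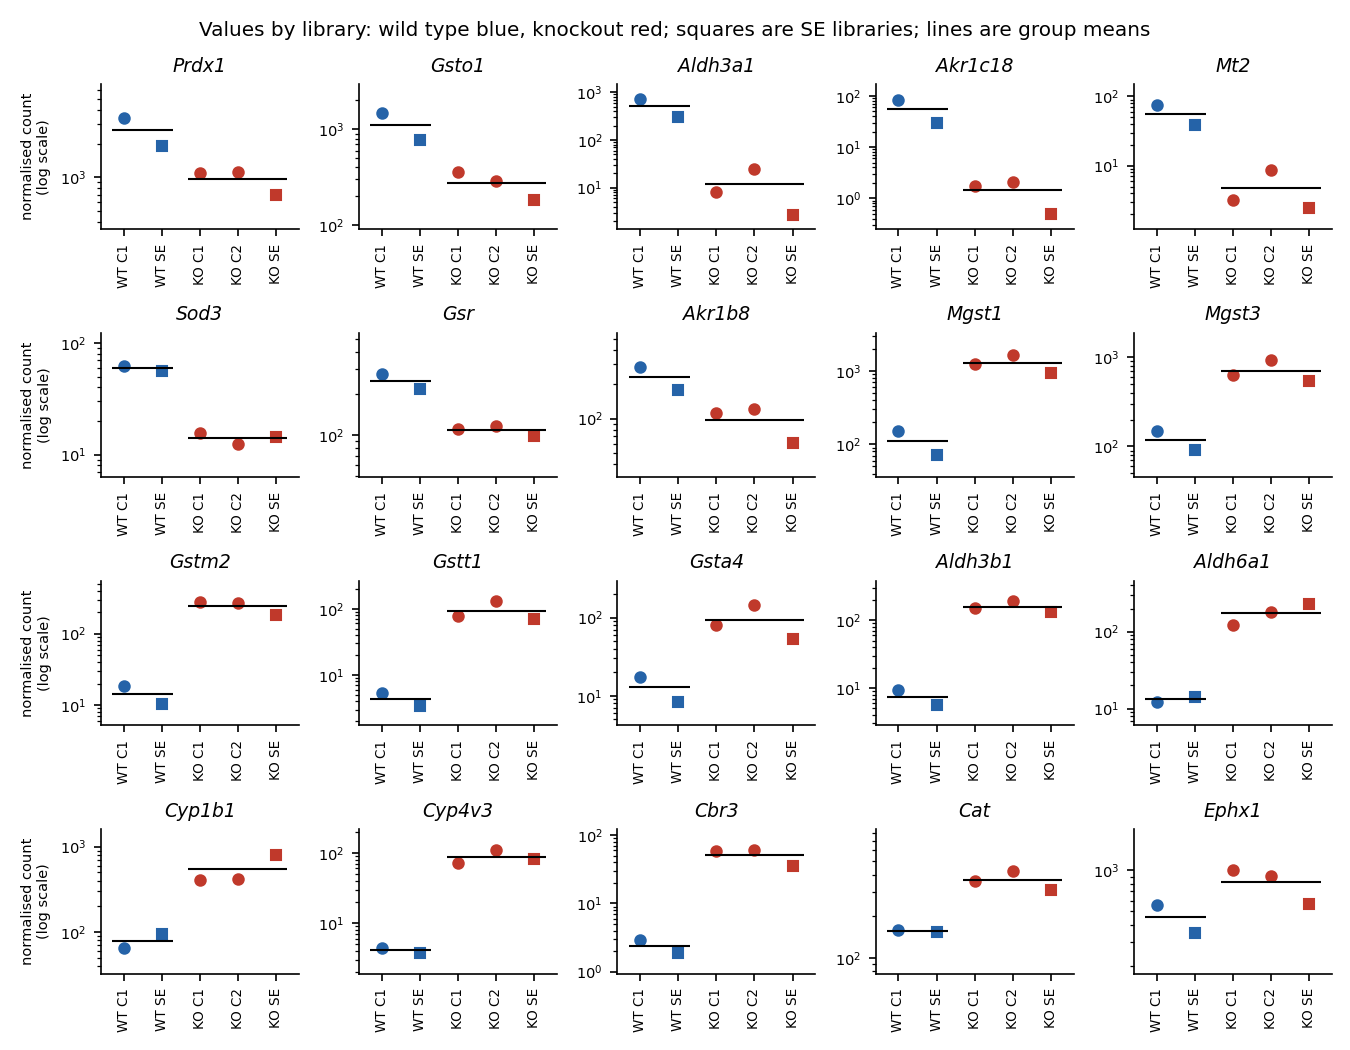
Normalised counts (y axis, log scale) of 20 members in each of the 5 libraries (x axis); WT is blue, KO red, squares are the SE libraries and lines are group means. The 8 genes from Prdx1 to Akr1b8 have every KO point below every WT point, and the 12 from Mgst1 to Ephx1 have every KO point above. All 20 are a selection from the members whose groups did not overlap. The 31 members with overlapping groups are not shown. Groups did not overlap in 58.8% of all tested genes.

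Of the 17 glutathione S-transferases, 9 were called higher in KO (52.9%, where 17.2% of all tested genes were) and 2 lower (11.8%, against 17.1%). Gstm2, a mu-class transferase, was at 18.6 and 10.4 in WT C1 and SE, and at 273, 272 and 183 in KO C1, C2 and SE, a 16.8-fold rise of the mean (log2 change 4.05, SE 0.33, adjusted p = 0.000342). Its chromosomal neighbour Gstm4 was at 4.74 and 3.88 in WT and at 55.0, 52.6 and 39.8 in KO (11.4-fold, adjusted p = 0.000391). The theta-class Gstt1, which acts on small halogenated compounds, was at 5.35 and 3.47 in WT and at 76.7, 131 and 70.0 in KO (20.997-fold, adjusted p = 0.000413). All 3 genes were low in both WT libraries and an order of magnitude higher in each KO library. Gstk1, the kappa-class enzyme of mitochondria and peroxisomes, was at 0.243 and 0.259 in WT and at 10.3, 7.72 and 6.88 in KO (33.0-fold, adjusted p = 0.000396). Gsta4, the alpha-class enzyme with a preference for the lipid peroxidation product 4-hydroxynonenal, was at 17.5 and 8.34 in WT and at 79.4, 147 and 52.9 in KO (7.20-fold, and 11.2-fold without WT C1, adjusted p = 0.00729). KO C2 was the highest library for Gstt1 and Gsta4, and the lowest KO value of each still stood above the highest WT value.

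Gstt2, another theta-class gene, was at 0.649 and 0.881 in WT and at 4.89, 8.66 and 4.44 in KO (7.85-fold, adjusted p = 0.00436). The other transferases that rose were Gstt3 (3.76-fold), Gstz1 (2.58-fold), whose enzyme isomerises a tyrosine breakdown product, and Gstm6. Gstm6 had 3 reads in all in WT, each of them in the SE library, and 135 in KO, a ratio of rates of 32.1 with a 95% counting interval of 10.8 to 158. Gsto1, the omega-class enzyme that removes glutathione from proteins and reduces dehydroascorbate, went the other way. It was at 1469 and 767 in WT and at 361, 290.2 and 182 in KO, 4.03-fold lower (log2 change -1.99, SE 0.40, adjusted p = 0.0112). Gstcd, a protein with a transferase C-terminal domain, was 3.51-fold lower (adjusted p = 0.00816). Gsto2, next to Gsto1 on the chromosome, was the uncalled member nearest the threshold, at 50.7 and 23.0 in WT and 8.98, 18.6 and 6.23 in KO (adjusted p = 0.0517). Not every abundant transferase moved with the group. Gstm1, the most abundant mu-class member per kilobase, was at 295 and 188 in WT and at 207, 372 and 168 in KO, and Gstp1, the pi-class enzyme, was at 124 and 78.2 in WT and 216, 195 and 83.9 in KO. The groups overlapped for both, and also for Gstm5, Gstm7 and Gstp2, whose adjusted p lay between 0.25 and 0.971. Without a single library, Gstz1 (adjusted p = 0.127 without WT SE, 0.0571 without KO C1 and 0.0797 without KO C2), Gstcd (0.0827 without WT SE) and Gsto1 (0.0687 without WT C1) were no longer called. Mu-class and pi-class genes are close copies of one another, so their reads may have been divided between them in the authors' counting.

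The microsomal transferases, membrane proteins that also reduce lipid hydroperoxides, became the most abundant members in KO cells. Mgst1 was at 149.6 and 71.2 in WT and at 1227, 1641 and 937 in KO, an 11.5-fold rise (17.8-fold without WT C1; log2 change 3.57, SE 0.40, adjusted p = 0.00108). Mgst3 was at 147 and 90.5 in WT and at 627, 934 and 542 in KO (5.90-fold, log2 change 2.56, SE 0.34, adjusted p = 0.00212). For both genes the lowest KO library was more than 3 times the highest WT library. Mgst2, which can make leukotriene C4, was at 51.7 and 33.6 in WT and at 29.5, 30.7 and 23.9 in KO, and was not called (adjusted p = 0.171). Adipocyte markers changed in the same direction, and all 7 in the table were called higher. Of these, Plin1, Adipoq and Cidec were under 1 in both WT libraries and could enter the test only through their KO values. The summed value of the 7 was 51.1 to 79.2 in WT and 4387 to 10581 in KO. It was highest in KO C2, which was also the highest KO library for Mgst1 and Mgst3. The part of the adipocyte markers in the rise of the transferases was not tested.

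The peroxiredoxins were the most abundant family in WT cells, and 1 of the 6 was called lower. This share, 16.7%, lies near the 17.1% of all tested genes called lower. Prdx1, the main cytosolic peroxiredoxin, was at 3367 and 1916 in WT and at 1101, 1125 and 690.2 in KO, 2.72-fold lower (log2 change -1.42, SE 0.38, adjusted p = 0.0303). Every KO library was below the lower WT library, but each SE library was also well below the C libraries of its own group. The other 5 overlapped between groups. Prdx5 was at 519 and 377 in WT and 636, 554 and 437 in KO (adjusted p = 0.481), and Prdx2 at 479 and 300.3 in WT and 302, 346 and 205 in KO (adjusted p = 0.332). Prdx3, the mitochondrial enzyme, Prdx4, that of the endoplasmic reticulum, and Prdx6, which uses glutathione instead of thioredoxin, had adjusted p between 0.449 and 0.910. The call of Prdx1 was lost without WT C1 (adjusted p = 0.169), without KO C1 (0.0546), without KO C2 (0.0676) and after each chromosome's median change was subtracted (0.160). The 25 tested genes on either side of Prdx1 had a median log2 change of -0.77.

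Thioredoxins were not called in either direction, although 4 of the 5 were when the column heading was a block in the fit: Txn1 (adjusted p = 0.00141), Txn2 (0.0115) and Txnl1 (0.0481) lower and Txnl4b (0.0282) higher. Txn1, the cytosolic thioredoxin that reduces Prdx1, was at 489 and 318 in WT and at 282, 210.1 and 147 in KO, so that the groups did not overlap (log2 change -0.94, SE 0.35, adjusted p = 0.0793). Txnl1 was at 384 and 236 in WT and 313, 225 and 182 in KO, and the mitochondrial Txn2 at 355 and 232 in WT and 276, 267 and 149 in KO. For both, the WT SE value fell inside the range of the KO libraries. Txnl4a and Txnl4b, which share the thioredoxin fold but belong to the splicing machinery, had adjusted p of 0.938 and 0.0871. The glutaredoxins, small glutathione-dependent thiol reductases, were divided. Glrx2, the mitochondrial form, was at 33.6 and 24.9 in WT and at 84.8, 77.4 and 61.7 in KO (2.55-fold, adjusted p = 0.00971). The cytosolic Glrx was at 111 and 95.4 in WT and at 239, 281 and 177 in KO (2.25-fold, adjusted p = 0.0173). These 2 reduce mixed disulfides of proteins with glutathione. Glrx3 and Glrx5, which serve iron-sulfur cluster assembly, overlapped between groups: Glrx5 was at 183 and 112 in WT and 205, 179 and 101 in KO (adjusted p = 0.854). Leaving out WT SE ended the calls of Glrx2 (adjusted p = 0.0766) and Glrx (0.106), and Glrx was also lost without WT C1, KO C1 or KO C2.

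Gsr, the reductase that regenerates glutathione, fell. It was at 277 and 215 in WT and at 111, 117 and 98.5 in KO, a tight KO group 2.26-fold below WT (log2 change -1.16, SE 0.22, adjusted p = 0.00908, and 0.0877 without WT C1). Gss, which completes glutathione synthesis, was at 60.8 and 40.1 in WT and at 79.0, 71.1 and 53.7 in KO, with overlapping groups (adjusted p = 0.288). Among the enzymes that deal with superoxide and hydrogen peroxide directly, the secreted and the peroxisomal enzyme moved in opposite directions. Sod3, the extracellular superoxide dismutase, was at 61.7 and 56.4 in WT and at 15.5, 12.5 and 14.4 in KO, 4.18-fold lower (log2 change -2.03, SE 0.25, adjusted p = 0.00160). Cat, the peroxisomal catalase, was at 159 and 154 in WT and at 358, 426 and 310.4 in KO, 2.33-fold higher (log2 change 1.21, SE 0.23, adjusted p = 0.00871). Within each group these values lay close together, and SE and C libraries of WT differed little. The call of Cat was lost without WT C1 (adjusted p = 0.0609) or WT SE (0.0643), and that of Sod3 held in every fit that left out a library. The mitochondrial Sod2 was at 162 and 101 in WT and at 102, 106 and 65.2 in KO (adjusted p = 0.256), and the cytosolic Sod1 at 32.7 and 17.8 in WT and 55.2, 48.5 and 36.1 in KO (adjusted p = 0.0855).

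The 16 aldehyde dehydrogenases held both the strongest fall of the whole set and some of the strongest rises. Of the 16, 5 were called higher (31.25%, where 17.2% of all tested genes were) and 2 lower (12.5%, against 17.1%). Aldh3a1, an NADP-linked enzyme known from cornea and from exposed or transformed epithelium, was at 726 and 310.0 in WT and at 8.28, 24.97 and 2.72 in KO. It was 43.2-fold lower (log2 change -5.73, SE 0.84, adjusted p = 0.00321), a fold that was 25.9 without WT C1 and 94.2 without KO C2. The KO libraries differed widely among themselves, yet each lay far below the lower WT value. Aldh3b1, which oxidises lipid-derived aldehydes, was at 9.36 and 5.59 in WT and at 151, 190.3 and 134 in KO (21.2-fold, log2 change 4.34, SE 0.30, adjusted p = 0.000195). Aldh6a1, the mitochondrial methylmalonate semialdehyde dehydrogenase of valine breakdown, was at 12.1 and 14.3 in WT and at 123, 178 and 228 in KO (13.3-fold, adjusted p = 0.000390), and the tested genes around it had a median log2 change of 1.00. Aldh1a7, a relative of the retinaldehyde dehydrogenase Aldh1a1, was at 10.3 and 13.7 in WT and at 81.3, 44.1 and 70.3 in KO (5.43-fold, adjusted p = 0.00285). In these 3 genes that rose, no KO library approached the WT range, and for Aldh6a1 the SE library was the highest of the KO group.

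Aldh1b1, a mitochondrial enzyme, rose 18.8-fold from a WT mean of 0.251 (adjusted p = 0.000561), in a stretch where the tested genes had a median log2 change of -1.15. Aldh9a1, which acts on amino-aldehydes, was at 97.0 and 80.9 in WT and at 189, 232 and 159.8 in KO (2.18-fold, adjusted p = 0.0152, and 0.104 without WT SE, with the call lost also without WT C1 or KO C2). Aldh1l1, the cytosolic 10-formyltetrahydrofolate dehydrogenase, was at 10.7 and 14.0 in WT and at 3.53, 2.16 and 2.80 in KO, 4.37-fold lower (adjusted p = 0.00522, and 0.0591 without WT SE). Its mitochondrial counterpart Aldh1l2 did not separate the groups. It was at 13.3 and 33.0 in WT and at 2.73, 2.04 and 35.0 in KO, so that both SE libraries were high and the C libraries of KO were low. Aldh2, the mitochondrial enzyme that clears acetaldehyde and the most abundant of the family per kilobase in KO, was at 396 and 422 in WT and at 424, 479 and 423 in KO (log2 change 0.11, SE 0.22, adjusted p = 0.729). The remaining 7 of the family were not called, with adjusted p from 0.123 for Aldh18a1, a proline synthesis enzyme, to 0.955 for Aldh1a1.

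The aldo-keto reductases, NADPH-linked reductases of aldehydes and steroids, had 2 members called higher, 2 lower and 6 not called. The share in each direction, 20%, lies near the 17.2% and 17.1% of all tested genes called higher and lower. The members are therefore given for their own values. Akr1c18, the progesterone-inactivating 20-alpha-hydroxysteroid dehydrogenase, was at 83.8 and 29.6 in WT and at 1.74, 2.08 and 0.502 in KO, 39.3-fold lower (20.5-fold without WT C1; log2 change -4.81, SE 0.59, adjusted p = 0.00164). Its neighbours Akr1c12 and Akr1c13 went up. Akr1c12 was at 1.09 and 0.414 in WT and at 15.9, 21.7 and 10.3 in KO (21.2-fold, 38.6-fold without WT C1, adjusted p = 0.00128). Akr1c13 was at 3.69 and 1.81 in WT and at 21.4, 19.3 and 11.8 in KO (6.37-fold, 9.66-fold without WT C1, adjusted p = 0.00516). These 3 genes are close copies, yet their groups separated in opposite directions. Akr1b8, a relative of aldose reductase, was the called member nearest the threshold: it was at 281 and 177 in WT and at 111, 120.3 and 61.4 in KO, 2.35-fold lower (adjusted p = 0.0405). That call was lost without any of WT C1 (adjusted p = 0.215), WT SE (0.0603), KO C1 (0.0570) or KO C2 (0.0622). The most abundant of the family, the aldehyde reductase Akr1a1, was at 1292 and 788 in WT and at 852, 937 and 509 in KO, and the groups overlapped (adjusted p = 0.401).

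The carbonyl reductases rose as a whole family, all 4 of 4, where 17.2% of all tested genes were called higher. Cbr3 was at 2.92 and 1.86 in WT and at 58.1, 61.2 and 35.5 in KO (21.6-fold, log2 change 4.16, SE 0.36, adjusted p = 0.000413). Cbr1, which reduces quinones and prostaglandins, was at 34.8 and 24.0 in WT and at 107, 123 and 73.8 in KO (3.46-fold, adjusted p = 0.00643). Cbr2 rose 3.07-fold (12.7 and 7.36 in WT, 25.6, 36.7 and 30.1 in KO) and Cbr4, a subunit of a mitochondrial fatty acid synthesis enzyme, 2.40-fold (13.8 and 10.5 in WT, 29.8, 32.4 and 25.2 in KO). The groups stood apart for each of the 4. Cbr1 and Cbr3 are neighbours in a stretch of chromosome 16 whose tested genes had a median log2 change of 0.87, and after each chromosome's median was subtracted Cbr1 was no longer called (adjusted p = 0.0668). Cbr2 lost its call without WT SE (0.0871) or KO C2 (0.0544), and Cbr4 without any of WT C1, WT SE (0.117), KO C1 or KO C2.

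Among the 9 P450s and Por, 6 genes were called higher (60%, where 17.2% of all tested genes were) and none lower. Cyp4v3, a fatty acid omega-hydroxylase, was at 4.34 and 3.78 in WT and at 71.4, 109 and 81.4 in KO (21.5-fold, log2 change 4.25, SE 0.28, adjusted p = 0.000170), the smallest p of all 85 members. Cyp1b1, which oxidises oestrogens and polycyclic hydrocarbons and is a known AHR target, was at 64.7 and 93.8 in WT and at 404, 422 and 801 in KO (6.84-fold, log2 change 2.72, SE 0.37, adjusted p = 0.00233). It was the most abundant P450 per kilobase in both genotypes, and the SE library was the highest of its group in each. Cyp4f13 was at 6.40 and 6.11 in WT and at 14.9, 24.1 and 13.1 in KO (2.77-fold, adjusted p = 0.0260). Cyp4f17 (2.32-fold) and Cyp2u1 (2.38-fold) stayed at or under 5.02 in every library. Cyp4a12b had 1 read in WT and 107 in KO, a ratio of rates of 76.3 with a 95% counting interval of 13.4 to 3042. Cyp4f13, Cyp4f17, Cyp2u1 and Cyp4a12b each lost the call without WT C1 or without WT SE (adjusted p up to 0.120, 0.228, 0.280 and 0.0765), the first 3 also without KO C1 or KO C2, and Cyp2u1 also without KO SE (0.0525). Por, which passes electrons to these enzymes, was at 194 and 188 in WT and at 206, 319 and 163 in KO (adjusted p = 0.654). Ephx2, the soluble epoxide hydrolase, was at 4.13 and 1.87 in WT and at 10.4, 30.1 and 16.5 in KO (6.33-fold, 10.2-fold without WT C1; adjusted p = 0.0139, and 0.0827 without WT SE). The far more abundant microsomal Ephx1 was at 561 and 350 in WT and at 1000, 910 and 565.5 in KO. Its KO SE value lay just above WT C1, and the difference was not called (log2 change 0.85, SE 0.36, adjusted p = 0.110).

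The metallothioneins, cysteine-rich proteins that bind zinc and copper, had every KO value below every WT value. Mt2 was at 74.5 and 38.4 in WT and at 3.15, 8.78 and 2.44 in KO, 11.8-fold lower (20.2-fold without KO C2; log2 change -3.54, SE 0.57, adjusted p = 0.00458). Mt1 was at 923 and 508 in WT and at 275, 498 and 189 in KO; KO C2 lay just under WT SE, and the difference was not called (log2 change -1.21, SE 0.46, adjusted p = 0.0878). An antisense gene covers 73.5% of the exon bases of Mt2 in the annotation, and whether the authors counted by strand is not given in the sources used here.

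Promoter sequences are shown for 5 members that moved, or nearly so, and that are known targets of MTF1, NRF2 or AHR, to show which short motifs stand near their starts. They come from RefSeq (GRCm38.p6), run from 250 bases before the start to 30 after it, and are written on the gene's strand. A script searched both strands for the metal response element core TGCACNC or TGCGCNC, the antioxidant response element core TGACNNNGC and the xenobiotic response element core GCGTG, and the capitals mark the matches to the motif named. In Mt1 (chr8:94178839-94179118, + strand) there were 3 metal response matches, and in Mt2 (chr8:94172368-94172647, + strand) 4:
Mt1: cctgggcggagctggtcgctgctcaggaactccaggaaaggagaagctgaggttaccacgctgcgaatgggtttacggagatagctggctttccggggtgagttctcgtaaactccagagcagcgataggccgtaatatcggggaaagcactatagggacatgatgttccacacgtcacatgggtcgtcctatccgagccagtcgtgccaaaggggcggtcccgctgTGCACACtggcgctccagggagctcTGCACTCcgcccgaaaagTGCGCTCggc
Mt2: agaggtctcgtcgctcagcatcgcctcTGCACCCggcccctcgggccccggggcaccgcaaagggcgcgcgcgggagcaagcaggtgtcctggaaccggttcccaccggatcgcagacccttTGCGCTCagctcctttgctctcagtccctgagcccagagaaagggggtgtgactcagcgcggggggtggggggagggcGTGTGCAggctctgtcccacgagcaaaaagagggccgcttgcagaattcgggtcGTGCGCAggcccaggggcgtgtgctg
Prdx1 (chr4:116685349-116685628, + strand) and Mgst1 (chr6:138140277-138140556, + strand), which moved in opposite directions, each held a match to the antioxidant core, and that of Prdx1 overlaps a match to the AP-1 core TGANTCA:
Prdx1: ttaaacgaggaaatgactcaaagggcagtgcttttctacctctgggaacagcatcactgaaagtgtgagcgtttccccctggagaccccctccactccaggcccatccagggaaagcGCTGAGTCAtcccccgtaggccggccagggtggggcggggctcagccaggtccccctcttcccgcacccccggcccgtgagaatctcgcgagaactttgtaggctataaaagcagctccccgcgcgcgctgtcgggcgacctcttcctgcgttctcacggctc
Mgst1: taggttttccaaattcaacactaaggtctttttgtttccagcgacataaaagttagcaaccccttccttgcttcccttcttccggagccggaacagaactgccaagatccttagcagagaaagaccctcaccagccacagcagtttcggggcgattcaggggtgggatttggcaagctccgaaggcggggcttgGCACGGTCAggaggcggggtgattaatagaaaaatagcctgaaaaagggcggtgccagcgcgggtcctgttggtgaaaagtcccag
Cyp1b1 (chr17:79715032-79715311, - strand) held 1 match to the xenobiotic core:
Cyp1b1: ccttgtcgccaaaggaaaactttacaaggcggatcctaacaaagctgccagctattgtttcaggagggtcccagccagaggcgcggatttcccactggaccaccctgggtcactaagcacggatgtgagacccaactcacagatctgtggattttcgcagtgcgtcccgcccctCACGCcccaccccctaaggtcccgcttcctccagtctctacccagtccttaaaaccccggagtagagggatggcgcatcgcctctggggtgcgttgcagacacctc
A match is a run of letters, not evidence of binding. Over the 300 bases of the RefSeq table, 68 members had a promoter, and the first start listed was used for each gene. The antioxidant core occurred in 7 of the 68 (10.3%), in 15.1% of the 9390 tested genes with a promoter and in 12.4% of all 32851 promoters. The xenobiotic core occurred in 30 (44.1%, against 52.7% of tested genes and 32.4% of all promoters), the metal core in 19 (27.9%, against 36.7% and 25.7%) and the AP-1 core in 9 (13.2%, against 4.90% and 7.81%). Of the 26 members called higher with a promoter, 2 held the antioxidant core there, Aldh9a1 and Mgst1, and of the 7 called lower 2 did, Mt2 and Prdx1.

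Many members sit beside a relative, and 13 groups in which each member starts within 300 kb of the next held 35 of the 85. Coordinates are GENCODE M21 (GRCm38), matched by Ensembl ID. In the mu-class cluster (chr3:107895821-108044894), Gstm2, Gstm4 and Gstm6 were called higher, while Gstm1, Gstm5 and Gstm7 between and beside them were not. The theta-class cluster (chr10:75774115-75837424) had all 3 of its members called higher. The Akr1c cluster (chr13:4049011-4279433) held Akr1c12 and Akr1c13, called higher, Akr1c18, called lower, and Akr1c14, not called (adjusted p = 0.172). The 2 carbonyl reductases on chromosome 16 and the pair of Aldh9a1 and Mgst3 on chromosome 1 were called higher together. In the bar plot of neighbours, all bars of the theta cluster point up, while in the Akr1c cluster Akr1c18 points down between Akr1c14 and Akr1c13.

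**Figure D3:**
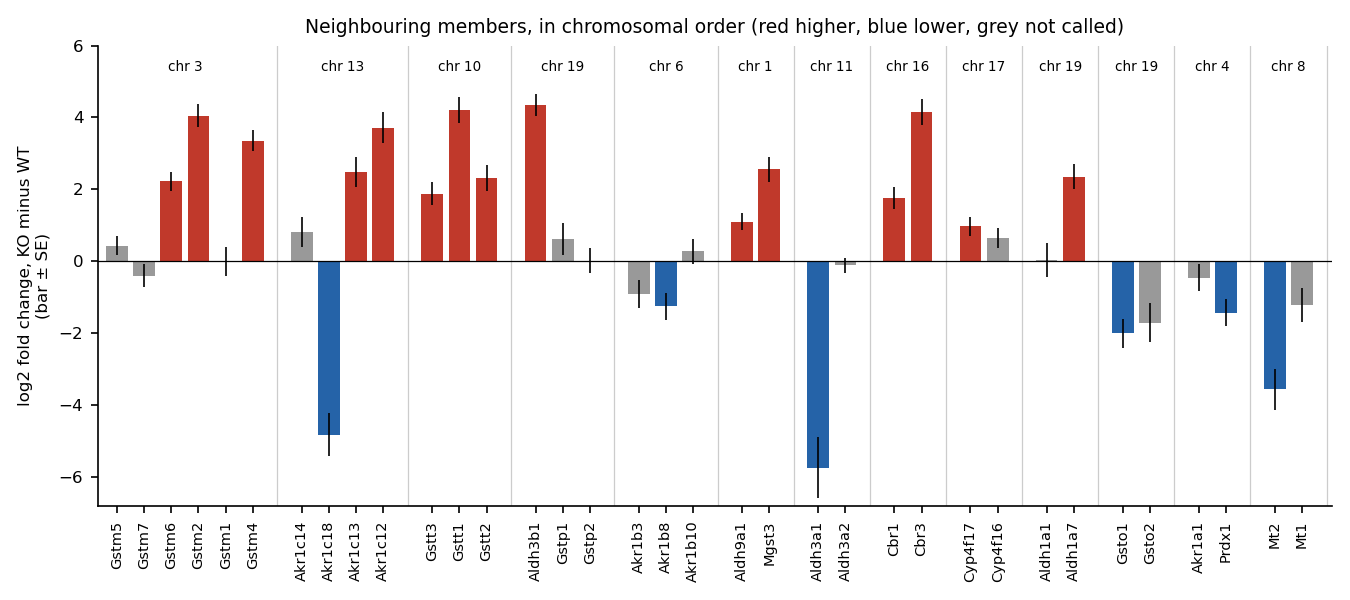
Log2 change, KO minus WT (y axis; bar and SE from the limma fit), of the 35 members that lie within 300 kb of another member (x axis, in chromosomal order within each group; grey lines separate groups, chromosome above). Red bars were called higher, blue lower, grey not called; the Akr1c group on chromosome 13 holds 2 red bars and 1 blue bar.

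The genes that supply and use glutathione around these enzymes were taken as lists by their role. Of 24 genes of glutathione supply and glutathione peroxidases, 6 were called higher and 5 lower, with a median log2 change of -0.48, where 17.2% and 17.1% of all tested genes were called higher and lower. These shares, 25% and 20.8%, lie near those of all tested genes, and the genes with the smallest p are given for their own values. Gclc, the catalytic subunit of the rate-limiting ligase, was at 488 and 438 in WT and at 56.5, 51.1 and 55.5 in KO (8.51-fold lower, adjusted p = 0.000162). Slc7a11, the cystine importer, was at 41.7 and 33.7 in WT and between 0.0378 and 0.423 in KO (187-fold lower, and 416-fold without KO C1; adjusted p = 0.000116). Gclm, the regulatory subunit of the ligase, was at 261 and 222 in WT and at 172, 172 and 111 in KO and was not called (adjusted p = 0.0950). Gpx3, the secreted glutathione peroxidase, was at 12.2 and 8.70 in WT and at 2312, 2551 and 1222 in KO (194-fold, adjusted p = 7.21e-05). Ggt5, a gamma-glutamyl transferase, rose 541-fold from a WT mean of 0.147 (328-fold without WT SE, 1540-fold without WT C1). Dpep1, a dipeptidase of the same breakdown route, had no read in WT and a KO mean of 89.97, at least 650-fold higher when WT is set to 3 reads over the group.

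Of 22 genes of NADPH supply and thioredoxin reduction, 8 were called higher (36.4%) and 3 lower (13.6%), with a median log2 change of 0.42. The NADPH-making Idh1 was at 142 and 129 in WT and at 873, 1139 and 865 in KO (7.06-fold, adjusted p = 0.000393), and the methionine sulfoxide reductases Msrb3 (5.11-fold) and Msrb2 (9.21-fold) and the stress protein Sesn1 (4.05-fold) also rose. Txnrd1, the cytosolic thioredoxin reductase, was at 708 and 851 in WT and at 468, 353 and 416 in KO, 1.89-fold lower (adjusted p = 0.0291, and 0.172 without WT SE, with the call lost also without WT C1, KO C1 or KO C2). In the NRF2 list 1 of 18 genes was called higher (5.56%) and 3 lower (16.7%, near the 17.1% of all tested genes), with a median of -0.26. Nqo1, a quinone reductase and a standard NRF2 target, was at 713 and 358 in WT and at 45.2, 50.6 and 22.1 in KO (13.6-fold lower, adjusted p = 0.00147). Nfe2l2, the gene of NRF2 itself, was 2.43-fold lower (503 and 353 in WT, 192, 204 and 132 in KO; adjusted p = 0.0164, and 0.115 without WT C1), and Keap1, its inhibitor, was not called (adjusted p = 0.232). Hmox1, a haem-degrading enzyme under the same factor, was 3.07-fold higher (adjusted p = 0.0117, and 0.0788 without WT SE). Genes known as NRF2 targets lay on both sides. Gclc, Nqo1, Prdx1 and Gsr are examples of those lower, and Gsta4, Cbr3 and Hmox1 of those higher. These examples are not a count of either side.

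In the AHR list of 6 genes none was called higher and 3 were called lower (50%, where 17.1% of all tested genes were), with a median of -1.25. Ahrr, in the same list, had 2 reads in WT and 153 in KO, wholly above WT, but was not called (adjusted p = 0.0572). Cyp1b1, given above as a known target of the receptor, was higher. It is 1 example and not a count of the receptor's targets in either direction. Ahr was at 89.5 and 199 in WT and at 5.13, 9.19 and 21.7 in KO (12.0-fold lower, 7.45-fold without WT SE and 20.1-fold without KO SE; adjusted p = 0.00578), and Tiparp, a feedback gene of the receptor, at 331 and 258 in WT and 17.8, 30.001 and 23.8 in KO (12.3-fold lower, adjusted p = 0.000319). Of 5 metal-handling genes, the zinc transporter Slc30a5 was called lower (2.08-fold, adjusted p = 0.00839, and 0.0703 without WT C1 and 0.0693 without WT SE), and Mtf1, the factor that drives metallothioneins, was at 18.1 and 21.6 in WT and at 12.3, 13.5 and 12.9 in KO (adjusted p = 0.128). The 1 metal-handling gene called lower is 20% of its list, near the 17.1% of all tested genes called lower. Retinoid handling had 4 of 9 called higher (44.4%, against 17.2% of all tested genes) and 2 lower (22.2%, against 17.1%), with a median of 0.67. The retinoic acid binding protein Crabp1 went from 1228 and 825 in WT to at most 0.0757 in each KO library, and Dhrs3, which turns retinaldehyde back to retinol, rose 31.0-fold (47.0-fold without WT C1). Of 7 alcohol dehydrogenase genes 3 were called higher (42.9%) and none lower, with a median of 1.07. Adh1 went from 5 reads in WT, all in C1, to 26.1, 51.0 and 23.3 in KO. Adh7 rose 16.2-fold (29.0-fold without WT C1) and Dhrs7 3.90-fold.

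Marker genes of other cell types moved with the genotype as well. The adipocyte markers Plin1, Fabp4, Lpl, Cebpa, Pparg, Adipoq and Cidec were all called higher in KO; Lpl was at 60.9 and 41.2 in WT and at 4196, 8665 and 3657 in KO, and Cidec was at 0 in both WT libraries. KO C2, where their summed value was highest, was the highest KO library in 44 of the 85 members, KO C1 in 31 and KO SE in 10. As shares these were 51.8%, 36.5% and 11.8% of the members, and 24.4%, 33.8% and 41.8% of all tested genes. All 3 mesothelial and epithelial markers in the table, Msln, Krt18 and Krt19, were called lower, their summed value being 321 and 368 in WT and 2.51 to 5.88 in KO, with Krt18 at 0 in KO. Of 4 leukocyte markers in the table, Lyz2 and Csf1r were called higher and Cd14 lower, and their summed value was 66.9 and 94.4 in WT and 50.1 to 59.1 in KO. Of the MSC markers, none of 9 was called higher. Nt5e, Alcam, Cd44 and Ly6a (44.4%) were called lower, where 17.1% of all tested genes were. Pdgfrb (4.61-fold, adjusted p = 0.0550) and Vcam1 (1.81-fold, adjusted p = 0.0728) lay wholly above WT in KO but were not called, and the other 3 overlapped between groups. Some of these markers could enter the test only through 1 group, so the direction of their calls was set by the filter. Plin1, Adipoq, Cidec, Lyz2 and Csf1r were under 1 in both WT libraries. Msln, Krt18, Nt5e and Alcam were under 1 in every KO library. The part of these cell type differences in the changes of the detoxification genes was not tested.

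Because the column headings divide both genotypes into C and SE libraries, the comparison was also made within each heading. KO minus WT had the same sign in the C libraries and in the SE libraries for 80 of 85 members, where 87.8% of all tested genes did. The 5 members that did not, Aldh1l2, Aldh5a1, Por, Prdx4 and Glrx5, were all uncalled. With the heading as a block in the fit, 40 of 85 members were called higher, where 28.3% of all tested genes were. The block called 22 of 85 lower, where 32.3% of all tested genes were. In either direction 60.6% of all tested genes were called. Among the members the block added 20 calls and lost none. Ephx1 then passed as higher (adjusted p = 0.00272), and Mt1 (0.00321), Txn1 (0.00141), Gsto2 (0.00231) and Akr1b3 (0.00115) passed as lower. The plot of the 2 within-heading differences shows the members close to the line of equality.

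**Figure D4:**
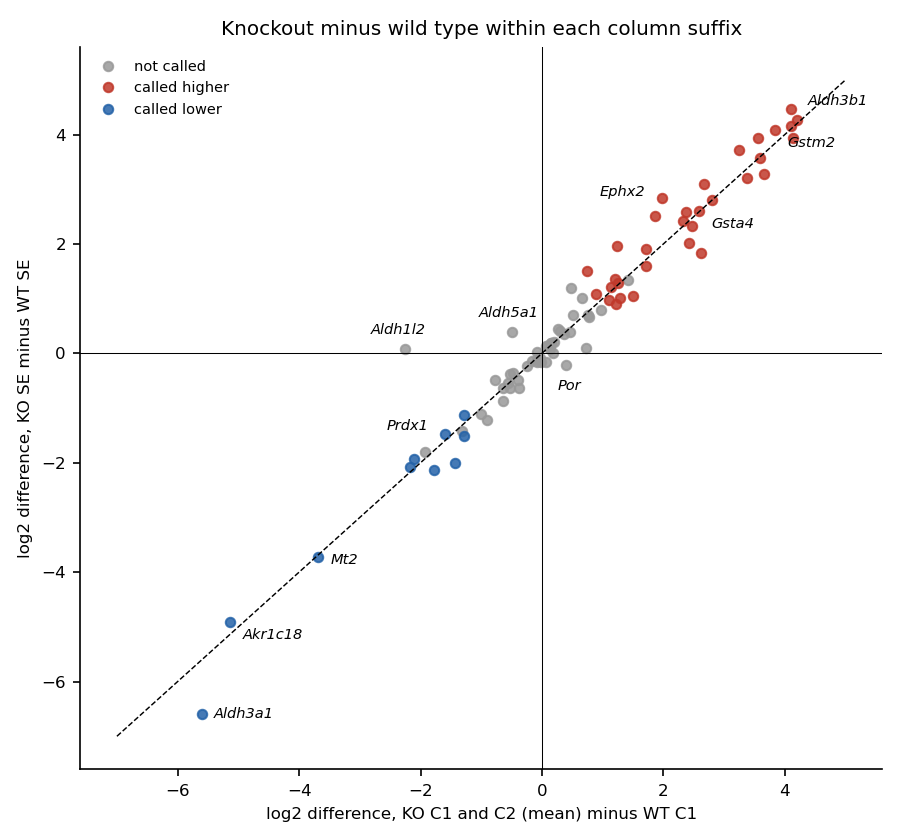
Log2 difference KO minus WT of each member within the C libraries (x axis; mean of KO C1 and KO C2 minus WT C1) and within the SE libraries (y axis; KO SE minus WT SE), with the line of equality dashed. Red members were called higher, blue lower and grey not called; Aldh1l2 (-2.26 and 0.09) lies farthest from the line among the uncalled members.

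The heading itself went with gene length. Members were lower in SE than in C libraries in both genotypes in 62 of 85 cases, where 42.9% of all tested genes were, and their median SE minus C difference was -0.48 on the log2 scale, that of all tested genes -0.04. The members are short genes, with a median exon length of 3069 bases against 4415. Across all tested genes exon length and the SE minus C difference had a Spearman rho of 0.54, and across the members one of 0.45; genes are not independent replicates, and these values share libraries. All tested genes shorter than the members' median had a median difference of -0.42, and longer ones 0.17. The aldo-keto reductases had a median of -0.78 and the aldehyde dehydrogenases one of 0.12. Length had little relation to the genotype difference, with a rho of -0.08 over all tested genes and of -0.13 over the members. In the plot against length, the aldo-keto reductases all lie below 0, and the long aldehyde dehydrogenases lie near or above 0. Akr1c14, at -0.20, lies close to the median of all tested genes of about its length (-0.19).

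**Figure D5:**
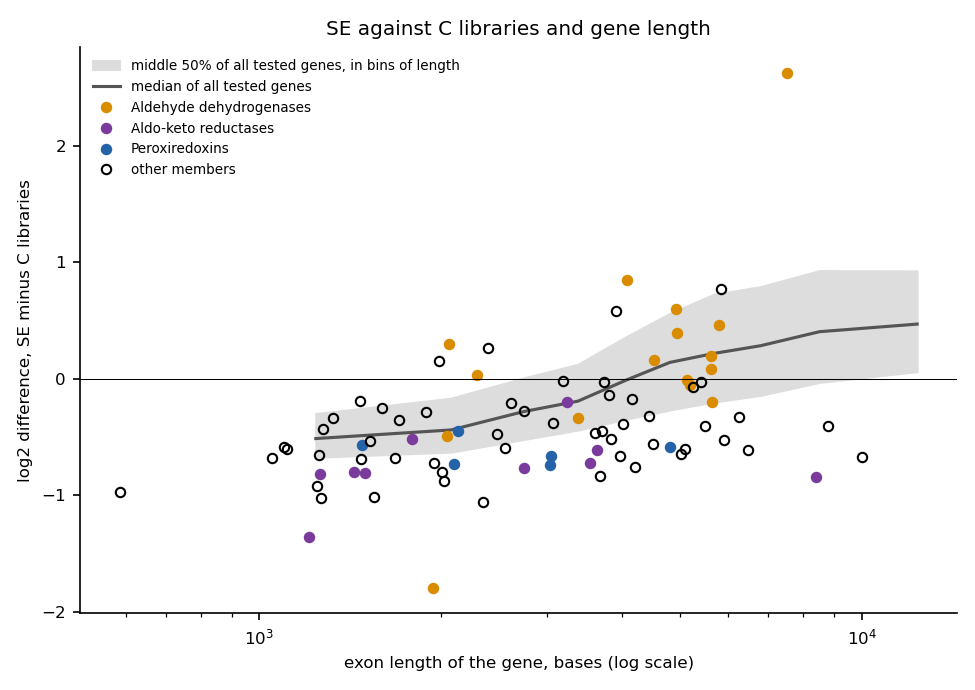
Log2 difference of SE minus C libraries, averaged over the genotypes (y axis), against exon length (x axis, bases, log scale), for the members (points, coloured for 3 families) and for all tested genes (line, median in bins of length; grey band, the middle 50%). Most members lie below 0, and the medians of all tested genes rise with length, from below 0 in the shortest genes to above 0 in the longest.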

How the data were processed

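RNA from 2 WT and 3 KO libraries of mouse MSCs was sequenced as 75-base single-end reads from a stranded mRNA kit, per the labels' protocols. The table deposited by the authors holds 1 normalised signal per gene and library, and its values equal read counts divided by TMM-scaled library sizes, on a CPM-like scale. The submitters' processing notes list STAR 2.5, featureCounts 1.5.2 and edgeR. The genome build and annotation are not given in the sources used here. Column names gave the group, and no replicate number.

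Whole reads were recovered from the values (100% whole within 0.02), which gives 13605555 to 26658725 reads per library. Counting intervals cover counting error only. Libraries of the same group differed beyond sampling noise (chi-square divided by its degrees of freedom, 62.9 to 222). The 12484 genes that reached 1 in 2 libraries or more were fitted on log2(value + 0.5) with limma 3.58.1 (lmFit, eBayes with a trend) in R 4.3.3, with Benjamini-Hochberg adjustment across the whole set. Fold changes of means come from the values themselves. Log2 changes understate low genes. The fit was tested on simulated data.

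Alternatives were edgeR 4.0.16 quasi-likelihood and DESeq2 1.42.0 on the recovered reads, other scalings, pseudocounts and filters, the column heading as a block, SE libraries left out, and each library left out. Coordinates and exon lengths are GENCODE M21, matched by Ensembl ID for 12612 genes and for all 85 members. Values in every library are given for up to 5 called members per family with the smallest p and a group mean of at least 5, and for the 2 highest per kilobase. Up to 4 called genes with the smallest p are named per pathway list. Other genes given with values, such as Gsta4, Gclm, Keap1, Mtf1, Txnrd1, Sod1 and the markers singled out, were chosen after their values were seen. The members and lists were chosen with earlier results of these data known. Close copies among the Gstm, Gstp, Akr1c and Cyp4 genes may share reads.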

Additional observations from a re-analysis of the deposited data

Results flagged for a closer look

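Of the 5 members whose KO minus WT difference had opposite signs in the C and the SE libraries, 3 had both KO C libraries on the same side of WT C1. None of the 3 was called. Aldh1l2 was lower in both KO C libraries than in WT C1 (log2 difference -2.26) and slightly higher in KO SE than in WT SE (0.09). Aldh5a1 gave -0.49 in the C libraries and 0.40 in the SE libraries. Por gave 0.40 in the C libraries and -0.21 in the SE libraries. Each SE difference rests on 1 library per genotype, and the difference between the headings was not tested.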

How the results depend on the processing

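No paired analysis was possible because the columns carry no number that matches the labelled replicates. The fit with the shared heading (C or SE) as a block is given instead. Of the 32 members called higher and 10 called lower, 23 were called under all alternatives that gave a value and 24 in every fit that left out a library. Leaving out a library gave 20 to 33 members higher and 6 to 13 lower, with 20 reached without WT SE and 6 without WT C1, and 14 to 24 pathway genes higher and 6 to 19 lower, from 22 and 17. Without KO C1, KO C2, KO SE, WT C1 and WT SE, 8, 10, 1, 12 and 15 called members were lost. Without both SE libraries 18 members were called lower, and with the heading as a block 22 members and 31 pathway genes were. edgeR called 30 members higher and 10 lower, DESeq2 33 and 11. Over all 85 members and the other genes named, 127 in all, 16 uncalled genes changed direction under some alternative. Centring on each chromosome gave 0.313 for Gstm1, -0.163 for Prdx4, 0.001 for Prdx3, -0.159 for Txnl4a, 0.111 for Glrx3, -0.491 for Glrx5, 0.272 for Aldh3a2, 0.312 for Aldh5a1, 0.132 for Akr1a1 and 0.120 for Itgb1. The heading as a block gave -0.0796 for Gstp2, -0.0353 for Prdx4, -0.0555 for Txnl4a, -0.0298 for Glrx5 and 0.0632 for Itgb1. Without both SE libraries Gstp2 gave -0.0212, Prdx4 -0.0779, Txnl4a -0.0354 and Itgb1 0.0358. Quantile normalisation gave -0.228 for Gstp2, 0.0545 for Gstm1 and 0.0115 for Prdx3. Median-of-ratios rescaling gave 0.0562 for Gstm1, 0.0056 for Prdx3 and 0.0581 for Itgb1. edgeR gave 0.0499 for Gstm1 and 0.0058 for Itgb1, and DESeq2 0.120 for Gstm1, 0.0104 for Prdx3 and 0.0592 for Itgb1. Leaving out a library gave ranges of -0.242 to 0.283 for Gstp2, -0.335 to 0.320 for Gstm1, -0.306 to 0.478 for Prdx4, -0.343 to 0.236 for Prdx3, -0.229 to 0.304 for Txnl4a, -0.459 to 0.194 for Glrx3 and -0.243 to 0.46 for Glrx5. They were -0.425 to 0.273 for Aldh5a1, -0.236 to 0.460 for Aldh1a1, -0.0815 to 0.659 for Akr1b10, -0.0828 to 0.503 for Akr1e1, -0.0616 to 0.421 for Por, -0.0784 to 0.427 for Cyp2j6 and -0.177 to 0.174 for Itgb1. The cause was not tested. Of the values recomputed for these 127 genes, 2206 kept direction and call, 47 gained a call, 66 lost one and 57 reversed. Depth limits Gstm6, Cyp4a12b, Gstk1 and Aldh1b1, which had few reads in WT.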
